A study of Mus musculus with 6 samples.

Results

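The genes described here encode enzymes of the tricarboxylic acid (TCA) cycle, of ketone body use and of branched-chain amino acid breakdown in the left ventricle of the mouse. They were chosen as 39 listed symbols, and the platform annotation gave the probe sets of each. All 39 had a probe set assigned to that symbol alone, of 19938 genes so named, and all 39 passed the filter on low values that left 10547 genes for testing.

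Tissue came from the left ventricle of male C57/BL6 mice aged 10 weeks, with no altered allele named in the labels. There were 3 arrays of a group given saline and 3 of hearts exposed to 2-methyl-2-thiazoline (2MT), a small thiazoline compound injected under the skin at 50 mg/kg. Hearts were excised 4 h after injection, per a protocol text that all 6 samples carry and that describes only the 2MT injection. Whether the 3 arrays of a group come from separate animals is not said, and the p-values cover the spread between those arrays, part or all of which could be technical. The study was set up to find how the compound protects the heart, and the comparison asks which transcripts it alters.

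The heart makes most of its ATP in mitochondria, and the TCA cycle is where carbon from fatty acids, glucose, ketone bodies and amino acids meets. The pyruvate dehydrogenase complex feeds pyruvate into the cycle as acetyl-CoA, while ketone bodies and the branched-chain amino acids leucine, isoleucine and valine reach it as acetyl-CoA or succinyl-CoA. The branched-chain keto acid dehydrogenase complex performs the committed step of branched-chain breakdown and is switched off by phosphorylation.

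The tissue label was checked against 8 cardiomyocyte markers, and all 8 were above the floor for dim genes (a log2 signal of 4.345, the median of all probe sets). The mean of their log2 signals lay between 12.21 and 12.25 on the saline arrays and between 12.25 and 12.26 on the 2MT arrays, and 0 of 8 passed the test. Cells of other types were not separated, so fewer cells of a type and less RNA per cell cannot be told apart. A pair of saline arrays stood apart in markers of other tissue. The atrial gene Myl4 was at 6.47 on saline 2 against 4.80 to 5.13 on the other arrays, and the erythrocyte gene Alas2 was at 7.07 on saline 3 against 5.15 to 5.76. Over the 3 atrial markers the log2 of the summed signal ran from 5.71 to 7.04 in saline and from 5.53 to 5.73 in 2MT. Over the 3 erythrocyte markers measured, of 6 listed, it ran from 7.03 to 8.02 in saline and from 7.01 to 7.27 in 2MT. Of markers of other cells, 2 of 7 skeletal muscle genes and 1 of 7 adipocyte genes were above the floor, and all 6 fibroblast, 6 endothelial and 5 macrophage genes were. Of these, Cidea (adipocyte), Pecam1 (endothelial) and Fcgr3 (macrophage) fell, each the only gene of its list to pass. The means of the other macrophage genes were higher in 2MT, Mrc1 by only 0.0067. Of the other endothelial genes, Kdr (0.24), Tek and Cdh5 had higher means, and Tie1 and Vwf (-0.16) lower ones. The part of these markers in the results was not tested.

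At 4 h after injection, none of the 39 genes passed the test, and each of them differed by less than 1.2-fold. Of the 39 genes, 0 rose and 0 fell in limma at an adjusted p under 0.05, where 4.63% of all genes tested were called (2.22% higher and 2.41% lower in 2MT). At an unadjusted p under 0.05 there were 4 of 39 genes, 3 with a higher mean in 2MT (Idh3b, Suclg2 and Acat1) and 1 with a lower one (Suclg1), beside 17.8% of all genes tested. The differences ran from -0.16 for Hibch to 0.16 for Dbt on the log2 scale, which is 1.12-fold lower to 1.11-fold higher. Their median was 0.01, beside 0.0033 over all genes tested, and 20 means were higher and 19 lower in 2MT. The median size of a difference, sign aside, was 0.057 for the 39 genes, 0.087 for all genes tested and 0.08 for the 2893 genes with a mean signal at or above that of the dimmest member. Of those 2893 genes 8.3% were called, 25.5% were at an unadjusted p under 0.05, and the groups did not overlap in 27.9%.

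**Figure D1:**
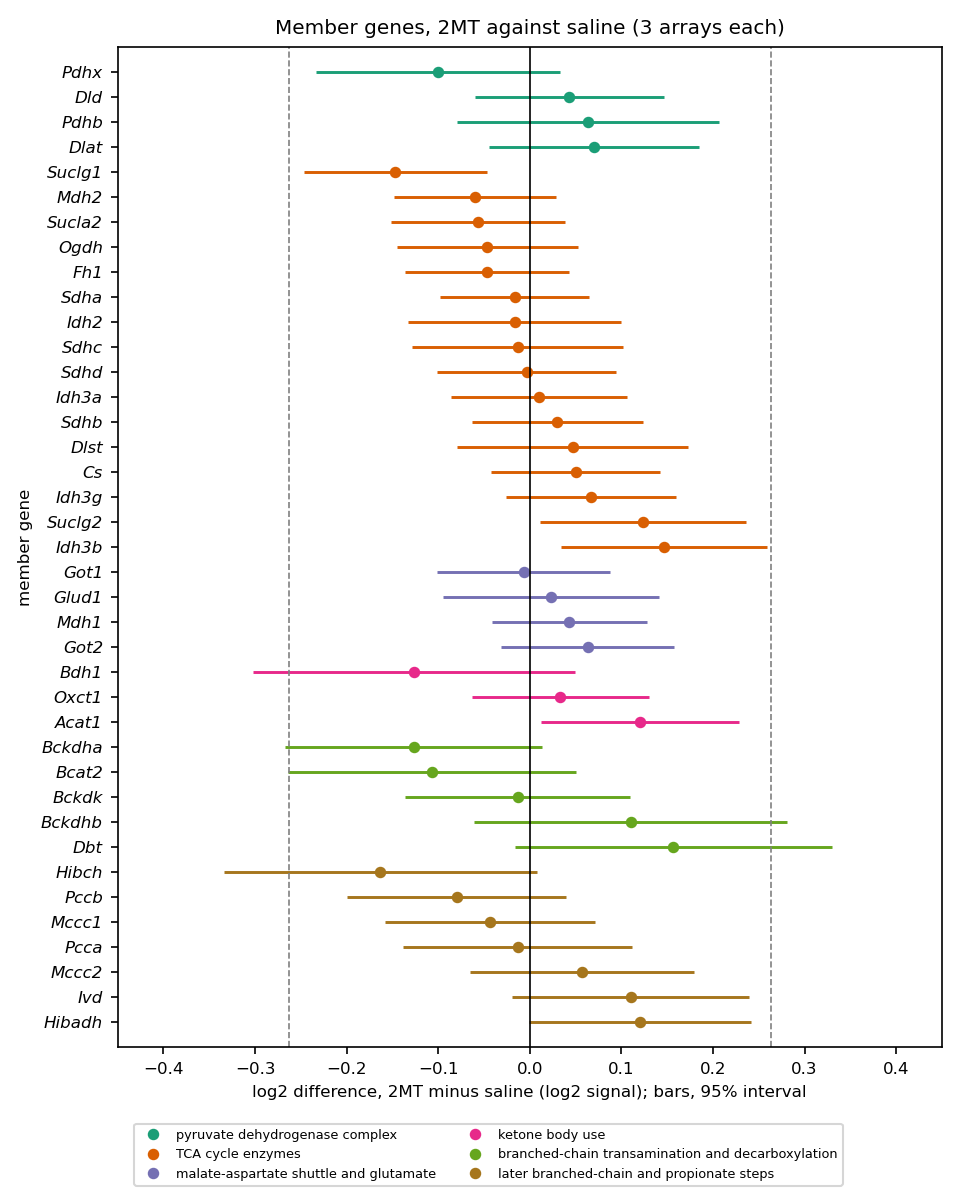
Log2 difference of each member gene, 2MT minus saline (x axis, log2 signal), with its 95% interval from limma as a bar and genes coloured by role (n = 3 arrays a group). The dashed lines mark 1.2-fold either way, which the intervals of Bdh1, Bcat2, Bckdha, Bckdhb, Dbt and Hibch cross.

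The intervals rest on the spread between these arrays, part or all of which could be technical, and on the variance trend. Without that trend the SEs were larger, such as 0.076 against 0.052 for Idh3b and 0.064 against 0.046 for Suclg1. The intervals would then be wider. The 95% interval from limma lay inside a 1.3-fold change either way for all 39 genes (78.8% of all genes tested), and inside a 1.2-fold change for 33 of 39 (84.6%), beside 43.7% of all genes tested. Among the 2893 brighter genes the shares were 88.9% at 1.3-fold and 68.3% at 1.2-fold. Those genes were not matched for level, with a median signal of 7.80 against 10.09 for the members. Their median SE was 0.064 against 0.053, and the part of signal level in these shares was not tested. The exceptions at 1.2-fold were Bdh1, of ketone use, and Bcat2, Bckdha, Bckdhb, Dbt and Hibch, of branched-chain breakdown. The interval of Dbt was -0.016 to 0.33 and that of Hibch -0.33 to 0.0075 on the log2 scale.

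**Figure D2:**
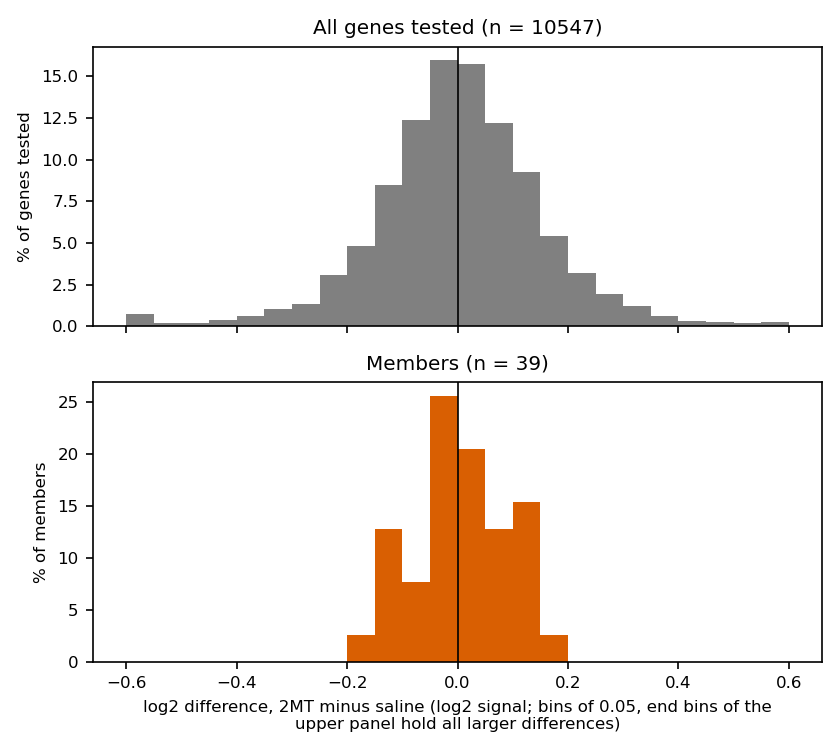
Distribution of log2 differences, 2MT minus saline (x axis, bins of 0.05), as a percentage of the 10547 genes tested (upper panel) and of the 39 members (lower panel). The members lie between -0.16 and 0.16, while the end bins of the upper panel hold all larger differences of other genes.

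The groups did not overlap in 4 of 39 genes (10.3%), beside 21.1% of all genes tested. Suclg1, Fh1 and Pccb lay lower on every 2MT array, and Suclg2 lay higher on the brighter of its probe sets but not on the other. Seen by array, the median deviation of the 39 genes from their saline means was between -0.02 and 0.01 on the saline arrays and between 0 and 0.02 on the 2MT arrays. With ties given to the array listed first, the 2MT 2 array held the highest value for 13 of the 39 genes. Saline 1 held the lowest for 12, and the same shares over all genes tested were not computed.

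**Figure D3:**
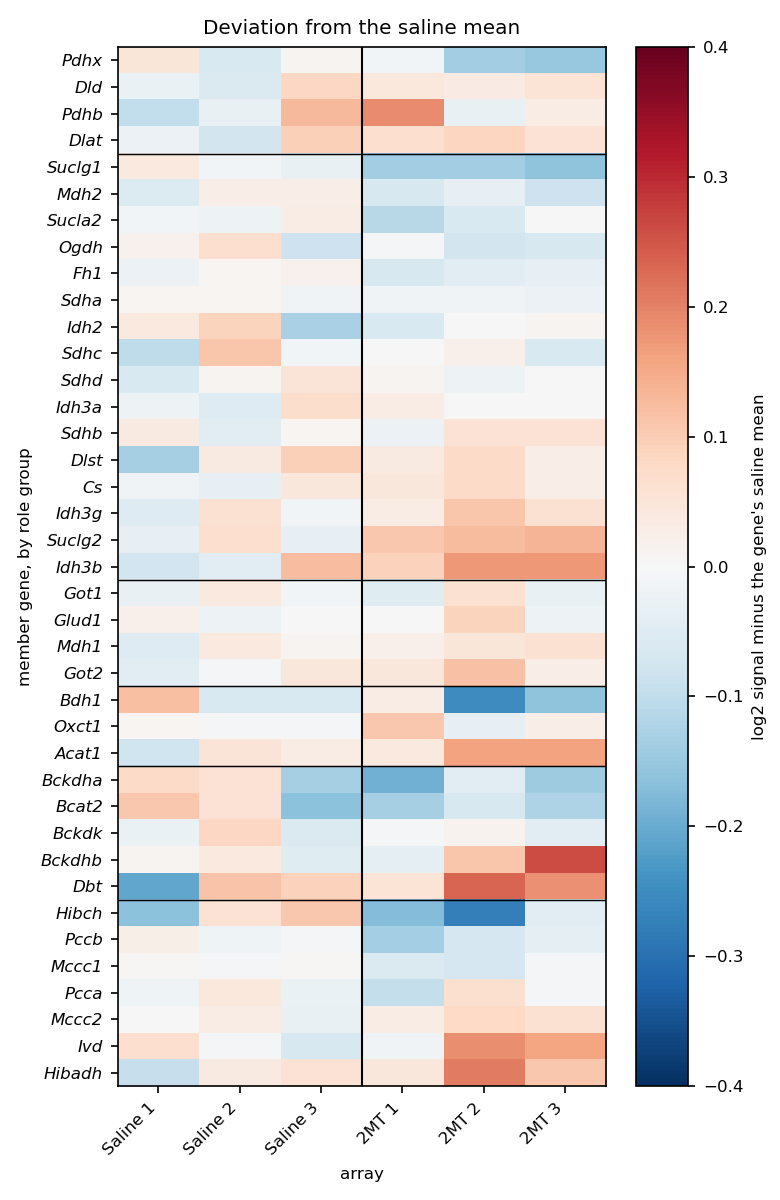
Log2 signal of each member gene on each of the 6 arrays, minus the gene's saline mean (colour), with genes in rows grouped by role and arrays in columns. Suclg1 is below and Suclg2 above the saline mean on all 3 2MT arrays, and most other rows show no split between the groups.

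The pyruvate dehydrogenase complex joins a pyruvate-oxidising component, of which Pdhb encodes a subunit, to the acetyltransferase encoded by Dlat, the dehydrogenase encoded by Dld and the binding protein encoded by Pdhx. Of these 4 genes 0 passed, 3 means were higher in 2MT, and the median difference was 0.053. Log2 signal for Pdhx was 8.0, 7.89 and 7.96 on the saline arrays and 7.94, 7.81 and 7.80 on the 2MT arrays. Its groups overlapped, with a difference of -0.10 ± 0.062 (SE, limma adjusted p = 0.43). Dlat was at 9.29, 9.24 and 9.41 in saline and 9.38, 9.40 and 9.37 in 2MT. The saline arrays enclosed the 2MT arrays for that gene, and the difference was 0.07 ± 0.053 (SE, limma adjusted p = 0.54). Pdhb and Dld differed by 0.063 and 0.043.

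Succinyl-CoA ligase, the step of the cycle that makes ATP or GTP directly, held the smallest p among the members. The enzyme pairs a shared alpha subunit, encoded by Suclg1, with a beta subunit that sets the nucleotide, Sucla2 for ADP and Suclg2 for GDP. Log2 signal for Suclg1 was 9.67, 9.62 and 9.60 on the saline arrays and 9.49, 9.49 and 9.47 on the 2MT arrays. All 3 2MT arrays were lower than all 3 saline arrays, by 0.15 ± 0.046 (SE), or 1.11-fold. That difference did not pass over all genes tested (limma adjusted p = 0.097), and it would be the single member called at an adjusted p of 0.10. Suclg2 was at 8.62, 8.72 and 8.62 in saline and at 8.76, 8.78 and 8.79 in 2MT. Here every 2MT array was the higher, by 0.12 ± 0.052 (SE, limma adjusted p = 0.23). A second probe set of Suclg2 read 8.36, 8.44 and 8.31 in saline and 8.47, 8.46 and 8.44 in 2MT, a difference of 0.087. Its groups met at 8.44 (limma adjusted p = 0.44 with every probe set tested on its own). Both probe sets list the same transcripts, so either may also read near-identical copies. It was not tested which of them reads Suclg2 itself, and the lack of overlap rests on the brighter probe set. Sucla2 was at 10.83, 10.82 and 10.87 in saline and at 10.73, 10.78 and 10.84 in 2MT. Its groups overlapped at a difference of -0.057 ± 0.044 (SE, limma adjusted p = 0.55).

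The 250 bases upstream of the annotated starts of these 3 genes are shown because the alpha subunit and the GDP-linked beta subunit lay on opposite sides of their saline values. They are from RefSeq on GRCm38.p6, 5′ to 3′ on the gene's strand, at chr6:73248255-73248504 (plus strand) for Suclg1, chr6:95718847-95719096 (minus strand) for Suclg2 and chr14:73552536-73552785 (plus strand) for Sucla2. Capitals mark matches to the motifs described after them.
Suclg1: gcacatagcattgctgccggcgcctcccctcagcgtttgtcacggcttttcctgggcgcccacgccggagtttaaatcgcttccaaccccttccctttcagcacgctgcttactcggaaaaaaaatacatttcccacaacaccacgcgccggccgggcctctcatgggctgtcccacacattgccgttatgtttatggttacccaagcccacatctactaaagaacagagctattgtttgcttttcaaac
Suclg2: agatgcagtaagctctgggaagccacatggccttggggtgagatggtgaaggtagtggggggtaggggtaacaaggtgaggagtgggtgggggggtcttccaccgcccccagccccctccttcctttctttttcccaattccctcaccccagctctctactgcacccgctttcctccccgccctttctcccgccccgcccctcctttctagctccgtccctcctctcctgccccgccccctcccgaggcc
Sucla2: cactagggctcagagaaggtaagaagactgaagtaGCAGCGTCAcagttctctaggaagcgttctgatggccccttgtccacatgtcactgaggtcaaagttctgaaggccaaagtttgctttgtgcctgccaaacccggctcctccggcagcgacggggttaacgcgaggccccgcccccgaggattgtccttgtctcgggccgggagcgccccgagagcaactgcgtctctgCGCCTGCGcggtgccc

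A motif search covered 44 such windows of 35 members and 32851 windows of all genes, on both strands, with overlapping matches allowed. Idh3a, Sdhc, Acat1 and Dbt had no window in the table. The antioxidant response element, bound by NRF2 and searched as TGACNNNGC, was in 4 of the 44 windows (9.09%) and in 10.2% of all windows. Those windows belonged to Bckdhb, Dlst, Idh3g and Sucla2. The site of nuclear respiratory factor 1, a regulator of mitochondrial genes, was searched as its core CGCANGCG and was in 10 windows (22.7%) and in 6.76% of all windows, which were not matched for base composition. Its windows belonged to Glud1, Hibadh, Idh3g, Ogdh, Pccb, Pdhb, Sdha, Sdhd and Sucla2. The element of the oestrogen-related receptors, searched as TNAAGGTCA, was in 0 of the 44 windows and in 1.14% of all windows. These are matches of letters and not binding sites, and the windows of Suclg1 and Suclg2 held none of the 3 motifs.

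Among the isocitrate dehydrogenases, Idh3b showed the second smallest p. It encodes a subunit of the NAD-linked enzyme, which is a regulated step of the cycle, together with Idh3a and Idh3g. Its log2 signal was 11.59, 11.62 and 11.79 in saline and 11.76, 11.84 and 11.84 in 2MT. Saline 3 lay within the 2MT range and the other saline arrays below it. The difference was 0.15 ± 0.052 (SE, limma adjusted p = 0.14). Without saline 3, the array high in Alas2, the difference was 0.21 and the gene passed (limma adjusted p = 0.015), which made 1 member of 39 called. Without any other single array Idh3b did not pass. Over all genes tested, 648 were called with saline 3 left out, against 488 with all arrays. Any link between Alas2 and Idh3b was not tested. Idh3g and Idh3a differed by 0.067 and 0.01. Idh2, the NADP-linked mitochondrial enzyme, was at 11.38, 11.43 and 11.21 in saline and at 11.28, 11.34 and 11.35 in 2MT. Its saline range enclosed the 2MT arrays, with a difference of -0.017 ± 0.054 (SE, limma adjusted p = 0.92).

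The remaining cycle enzymes differed by at most 0.06 either way. Cs, citrate synthase, was at 10.73, 10.71 and 10.79 in saline and at 10.79, 10.82 and 10.77 in 2MT. The groups overlapped at a difference of 0.05 ± 0.043 (SE, limma adjusted p = 0.60). Ogdh and Dlst, of the oxoglutarate dehydrogenase complex, differed by -0.047 and 0.047. The 4 subunits of succinate dehydrogenase, which is also respiratory complex II, differed by -0.017 (Sdha), 0.03 (Sdhb), -0.013 (Sdhc) and -0.0033 (Sdhd). Sdha varied little between arrays, with SDs of 0.012 in saline and 0.0058 in 2MT. Fh1, fumarase, was at 10.58, 10.61 and 10.62 in saline and at 10.54, 10.56 and 10.57 in 2MT. Its groups did not overlap, yet the difference was only -0.047 ± 0.042 (SE, limma adjusted p = 0.62). Mdh2, mitochondrial malate dehydrogenase, differed by -0.06. Over the 16 cycle enzymes the median difference was -0.0083, with 7 means higher and 9 lower.

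The malate-aspartate shuttle carries reducing equivalents of cytosolic NADH into mitochondria through paired malate dehydrogenases and aspartate aminotransferases. Got1, the cytosolic aminotransferase, was at 11.26, 11.33 and 11.28 in saline and at 11.24, 11.35 and 11.26 in 2MT. The 2MT arrays enclosed the saline arrays, with a difference of -0.0067 ± 0.044 (SE, limma adjusted p = 0.96). Got2, its mitochondrial partner, was at 11.02, 11.06 and 11.11 in saline and at 11.11, 11.18 and 11.09 in 2MT. Those groups overlapped, and the difference was 0.063 ± 0.044 (SE, limma adjusted p = 0.50). Another Got2 probe set gave 0.057, and as RefSeq lists a pseudogene Got2-ps1, either may read more than the gene. Mdh1, the cytosolic malate dehydrogenase, and Glud1, glutamate dehydrogenase, differed by 0.043 and 0.023.

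Ketone bodies are oxidised through Bdh1, which turns hydroxybutyrate into acetoacetate, Oxct1, which activates acetoacetate with succinyl-CoA, and Acat1, which splits acetoacetyl-CoA and also serves isoleucine breakdown. Bdh1 was at 7.33, 7.15 and 7.15 in saline and at 7.24, 6.96 and 7.05 in 2MT. The 2MT 1 array lay inside the saline range, and the difference was -0.13 ± 0.082 (SE, limma adjusted p = 0.46). It ran from -0.21 without 2MT 1 to -0.065 without 2MT 2. Oxct1 was at 10.98, 10.97 and 10.97 in saline and at 11.08, 10.94 and 11 in 2MT. Its saline arrays fell within the 2MT range, and the difference was 0.033 ± 0.045 (SE, limma adjusted p = 0.77), with the sign turned under quantile normalization (-0.014). Acat1 was at 10.72, 10.85 and 10.83 in saline and at 10.84, 10.96 and 10.96 in 2MT. The groups overlapped by 1 array, and the difference was 0.12 ± 0.050 (SE, limma adjusted p = 0.23).

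Breakdown of branched-chain amino acids starts with the mitochondrial aminotransferase encoded by Bcat2. Its log2 signal was 7.79, 7.74 and 7.52 in saline and 7.55, 7.62 and 7.56 in 2MT. Saline 3 was the lowest of all arrays, and the difference was -0.11 ± 0.073 (SE, limma adjusted p = 0.49). It was -0.19 without saline 3 and -0.053 without saline 1. In the keto acid dehydrogenase complex, Bckdha and Bckdhb encode the decarboxylase subunits and Dbt the acyltransferase core. Bckdha was at 8.91, 8.89 and 8.70 in saline and at 8.64, 8.79 and 8.69 in 2MT. The overlap came from saline 3, and the difference was -0.13 ± 0.065 (SE, limma adjusted p = 0.34), or -0.19 without saline 3. Dbt was at 8.27, 8.59 and 8.57 in saline and at 8.53, 8.71 and 8.66 in 2MT. Saline 1 was lowest there, and the difference was 0.16 ± 0.080 (SE, limma adjusted p = 0.33), but 0.053 without saline 1. Bckdhb differed by 0.11, with 2MT 3 the highest array, and by 0.035 without that array and 0.19 without 2MT 1. Bckdk, the kinase that inactivates the complex, was at 8.30, 8.41 and 8.27 in saline and at 8.32, 8.34 and 8.28 in 2MT. Its saline range enclosed the 2MT arrays, with a difference of -0.013 ± 0.057 (SE, limma adjusted p = 0.94).

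Past that step the routes of leucine, isoleucine and valine part. Hibch, a hydrolase of valine breakdown, showed the most negative difference of the 39 genes and Hibadh, the dehydrogenase that follows it, a positive one. Hibch was at 7.74, 7.96 and 8.01 in saline and at 7.73, 7.63 and 7.86 in 2MT. The groups overlapped on saline 1, and the difference was -0.16 ± 0.079 (SE, limma adjusted p = 0.31). It ran from -0.25 without saline 1 to -0.11 without 2MT 2. Hibadh was at 9.72, 9.85 and 9.87 in saline and at 9.86, 10.02 and 9.92 in 2MT. Those groups overlapped between saline 3 and 2MT 1, and the difference was 0.12 ± 0.056 (SE, limma adjusted p = 0.29). Of leucine breakdown, Ivd, isovaleryl-CoA dehydrogenase, differed by 0.11, and the methylcrotonyl-CoA carboxylase subunits Mccc1 and Mccc2 by -0.043 and 0.057. The propionyl-CoA carboxylase subunits Pcca and Pccb, which handle the propionyl-CoA of valine and isoleucine, differed by -0.013 and -0.08. Pccb was at 8.13, 8.09 and 8.10 in saline and at 7.97, 8.04 and 8.07 in 2MT, without overlap but within 1.06-fold (limma adjusted p = 0.50).

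Other genes of the same pathways were counted from a list of 63, of which 57 had a probe set of their own and 54 were tested. Of these 54, 4 rose and 3 fell (13%), beside 4.63% of all genes tested, and 4 of the 7 were among 10 transcriptional regulators. The list was drawn up with several of these changes already known, so its share is no independent result. Of 8 tested genes of pyruvate entry and its control, Pdk4 fell and Pdp1 rose. Pdk4, the kinase that inactivates pyruvate dehydrogenase, was at 11.77, 11.91 and 11.77 in saline and at 10.72, 11.16 and 10.89 in 2MT. All 2MT arrays were lower, by 0.89 ± 0.083 (SE, limma adjusted p = 2.1e-05). Pdp1, a phosphatase that reactivates the complex, was at 7.71, 7.83 and 7.87 in saline and at 8.0, 8.12 and 8.09 in 2MT. All 2MT arrays were higher, by 0.27 ± 0.063 (SE, limma adjusted p = 0.026). Its adjusted p was 0.11 with saline 1 left out, 0.058 with saline 2, 0.12 with 2MT 2 and 0.12 with 2MT 3, so the call was lost each time. It was also lost without the variance trend (0.098) and with every probe set tested on its own (0.051).

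Among 5 carriers of the shuttle and of citrate and dicarboxylates, Slc25a11 rose. It encodes the malate and oxoglutarate exchanger of the malate-aspartate shuttle and was at 10.28, 10.37 and 10.42 in saline and at 10.48, 10.57 and 10.60 in 2MT. The groups did not overlap, and the difference was 0.19 ± 0.051 (SE, limma adjusted p = 0.045). That call was lost in 9 of 18 alternatives, among them leaving out saline 1 (0.17), saline 2 (0.097), 2MT 2 (0.15) or 2MT 3 (0.20). The others were median centring (0.066), cyclic loess (0.067), no dim filter (0.075), every probe set on its own (0.082) and no variance trend (0.21).

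Of 15 tested genes of the cycle's side reactions and assembly 0 passed in limma (0 also at an unadjusted p under 0.05). Of 14 tested branched-chain and propionate genes outside the 39, 0 passed in limma, with 3 (21.4%) at an unadjusted p under 0.05, beside 17.8% of all genes tested. Ppm1k, the phosphatase that opposes Bckdk, was at 8.56, 8.76 and 8.63 in saline and at 8.65, 8.65 and 8.76 in 2MT. Its groups overlapped, with a difference of 0.037 ± 0.062 (SE, limma adjusted p = 0.83). Of ketone synthesis and transport, 2 genes were tested and 0 passed in limma (0 at an unadjusted p under 0.05).

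Of the 10 transcriptional regulators, 2 rose and 2 fell. Ppargc1a and Ppargc1b, coactivators of mitochondrial and oxidative genes, rose. Ppargc1a was at 9.25, 9.59 and 9.41 in saline and at 9.92, 9.86 and 9.99 in 2MT, and Ppargc1b at 5.51, 5.78 and 5.77 against 6.46, 6.47 and 6.41. Neither pair of groups overlapped, and the differences were 0.51 ± 0.072 and 0.76 ± 0.087 (SE, limma adjusted p = 9.0e-04 and 1.5e-04). Klf15, a factor known to promote branched-chain breakdown in heart, was at 7.52, 7.56 and 7.37 in saline and at 7.05, 7.09 and 7.10 in 2MT. It fell on every 2MT array, by 0.40 ± 0.067 (SE, limma adjusted p = 0.0033). Ppard, a nuclear receptor for fatty acids, fell by 0.32 ± 0.074 (SE, limma adjusted p = 0.024), from 6.61, 6.45 and 6.52 to 6.23, 6.23 and 6.17. The call of Ppard was lost without saline 1 (0.10), 2MT 1 (0.060), 2MT 2 (0.075) or 2MT 3 (0.12). Esrra, Esrrb and Esrrg, the oestrogen-related receptors, differed by 0.0033, -0.027 and 0.013, and none passed (limma adjusted p of 0.93 to 0.99). Ppara, Nrf1 and Tfam differed by 0.20, -0.09 and 0.13, and none passed (limma adjusted p = 0.17, 0.73 and 0.52). Ppara was at an unadjusted p of 0.019 in limma. Nrf1, which encodes nuclear respiratory factor 1, had means of 4.78 in saline and 4.69 in 2MT, near the floor of 4.345.

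**Figure D4:**
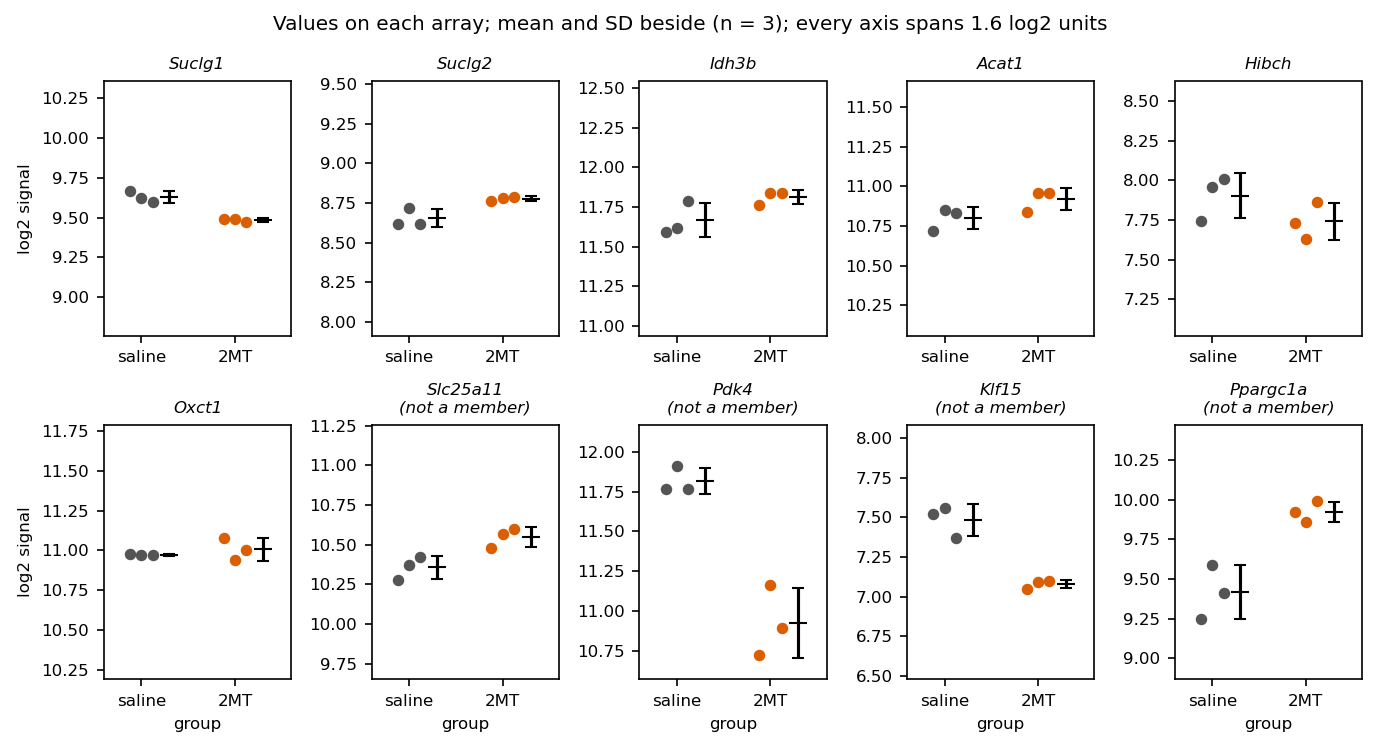
Log2 signal (y axis) on each saline and 2MT array for 6 members and 4 genes outside the list, with the mean and SD beside the points (n = 3). Every axis spans 1.6 log2 units, so the differences of Pdk4 (-0.89) and Ppargc1a (0.51) can be set against those of Suclg1 (-0.15) and Suclg2 (0.12).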

How the data were processed

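Left ventricular RNA was measured on 6 Affymetrix arrays, with biotinylated cDNA made from 100 ng of total RNA after Trizol extraction, per the labels' protocols. Each probe set has 1 deposited value on each array, read here as log2 signal because the values span 0.51 to 13.5. The submitters' processing notes name MAS5 without a version or a role. Any further normalization by the authors is not given in the sources used here. Values were used as deposited. No detection calls were used, so signal over background is unknown, and precision is limited by the number of arrays.

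The platform annotation gave 21789 of the 28944 probe sets 1 gene symbol, 1621 several and 5534 none, and 21698 matched the RefSeq mouse table by Entrez ID. Each gene was represented by its brightest probe set, and genes with a mean under 4.345 were left out. Another 5 probe sets carrying a member symbol were not used, and 0 of the 4 bright enough to test passed on their own. The test was two-sided in limma 3.58.1 (R 4.3.3), with group alone in lmFit and a variance trend in eBayes. P-values were adjusted by Benjamini-Hochberg over all 10547 genes, and a gene was called at an adjusted p under 0.05. With 3 against 3 arrays, exact permutation cannot go below 0.1. The test was tried on simulated data as a check of the code only. Nothing about differences as small as those of the members is drawn from it.

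The members and gene lists were chosen with earlier results of these data known. Values on every array are given for members with p under 0.05, for those with the largest difference each way in each role group, and for Cs, Idh2, Got1, Bdh1, Oxct1, Bcat2 and Bckdk. Sucla2, Fh1 and Pccb were added after their values were seen. Of the other pathway genes, called genes and Ppm1k are named by rule. Esrra, Esrrb, Esrrg, Ppara, Nrf1 and Tfam were added after their values were seen. Alternatives covered normalization, dim filter, probe set choice, variance model, array weights, replicate block, an offset of 16 before log2, each array left out, and an adjusted p of 0.10.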

Additional observations from a re-analysis of the deposited data

How the results depend on the processing

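The count of 0 members called held in 16 of 18 alternatives. It was 1 at an adjusted p of 0.10 (Suclg1) and ran from 0 to 1 with single arrays left out, the 1 being Idh3b without saline 3. The count of all genes called, 488, ran from 262 to 648 with single arrays left out, and was 292 without the variance trend and 768 at an adjusted p of 0.10. The median difference of the members was -0.014 with cyclic loess, against 0.01, and moved by less than its SD over arrays, 0.014, in the other 14 alternatives. Oxct1 was -0.014 under quantile normalization. With single arrays left out, 10 of the 39 members turned sign in at least 1 case, all with a difference of 0.047 or less in size. They were Got1 (-0.04 to 0.015), Idh2 (-0.082 to 0.028), Oxct1 (-0.0033 to 0.067), Bckdk (-0.042 to 0.028), Idh3a, Dlst, Sdhc, Sdhd, Glud1 and Pcca, none of which passed in limma under any alternative. Ppm1k, outside the 39, ran from -0.0083 to 0.092. Same-numbered arrays deviated together only weakly (correlations of 0.070, 0.040 and 0.022, and saline 3 correlated better with 2MT 2), so the numbers were not taken as pairs. With the replicate block 586 genes were called, 0 of them members, and the median of the members was 0.01.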

Other observations

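Partner genes of a complex can be compared as a log2 ratio within each array, against the saline mean of that ratio. The 9 pairs computed were picked after their values were seen, so no test is given. Several set a gene with a higher mean in 2MT over one with a lower mean, which favours separation. The share of other gene pairs without overlap was not computed, and 21.1% of single genes tested did not overlap. The ratio of Suclg2 to Suclg1 was -0.073, 0.077 and -0.0033 on the saline arrays and 0.25, 0.27 and 0.30 on the 2MT arrays. That ratio rests on the brighter probe set of Suclg2. For Bckdhb to Bckdha the ratio was -0.067, -0.017 and 0.083 in saline and 0.15, 0.15 and 0.40 in 2MT. For Dbt to Bckdha the saline arrays spread from -0.28 to 0.23 and the 2MT arrays from 0.25 to 0.33. Groups also did not overlap for Idh3b to Idh3a (mean 0.14 in 2MT) and Mccc2 to Mccc1 (0.10). They did overlap for Sucla2 to Suclg1, with the other beta subunit (0.09), Idh3b to Idh3g (0.08), Dlat to Pdhx (0.17) and Pccb to Pcca (-0.067).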
